A study of Mus musculus with 63 samples.

Results

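The neuropeptide and granin genes described here are 9 of the 55291 gene symbols counted in every library, chosen by symbol, with earlier results of these data known: Penk, Pdyn, Tac1, Tac2, Adcyap1, Vgf, Scg2, Chga and Chgb. They were measured by RNA-sequencing in 63 libraries from mouse organotypic entorhino-hippocampal tissue cultures, slice cultures that keep the entorhinal cortex attached to the hippocampus. The cultures were prepared at postnatal days 3 to 5 from animals of either sex and kept for at least 18 days in vitro. Synpo+/+ cultures came from C57BL/6J mice and Synpo-/- cultures from B6.129-Synpotm1Mndl/Dllr mice, which were backcrossed at least 10 times. In the lesion (entorhinal cortex lesion, ECL) the perforant path was cut with a scalpel, and tissue was collected 3 days later (3 dp ECL), while control cultures were left uncut. The regional experiment held 39 libraries, each from the dentate gyrus (DG) or the CA3 area of a culture. These were 4 control and 7 lesioned DG and 2 control and 3 lesioned CA3 libraries of Synpo+/+ cultures, and 7 control and 4 lesioned DG and 6 control and 6 lesioned CA3 libraries labelled Synpo-/-. The immunoprecipitation experiment held 24 libraries, in which an anti-synaptopodin antibody on beads pulled down RNA from lysates of 6 pooled cultures (Synpo-coIP) and the precleared lysate was sequenced beside it as input. It comprised 5 control and 5 lesioned Synpo+/+ lysates and 2 lysates labelled Synpo-/-, for which the labels name no lesion.

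Neuropeptides are cut from larger precursor proteins inside dense-core vesicles and act on receptors coupled to G proteins, and granins are acidic proteins that help to form and load these vesicles. In the hippocampus, granule cells of the DG send mossy fibers to CA3 pyramidal cells, and mossy fibers are known for their opioid peptides. Penk encodes the enkephalin precursor and Pdyn the dynorphin precursor. Tac1 gives substance P and neurokinin A, Tac2 gives neurokinin B, and Adcyap1 gives PACAP, the ligand of Adcyap1r1. Vgf encodes an activity-regulated secreted precursor, Scg2 encodes secretogranin II, and Chga and Chgb encode chromogranins A and B.

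Total counts ran from 14055930 to 46043990 in the regional libraries and from 11601154 to 53682143 in the immunoprecipitation libraries. Nothing in the sources says whether regional libraries of a group came from separate animals, so p-values measure the spread between libraries. Levels below are CPM, counts scaled to library size and normalised within each experiment. A gene was called at an adjusted p under 0.05 in edgeR's quasi-likelihood test over all genes tested.

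In the regional and input libraries, those labelled Synpo-/- did not show less Synpo RNA than Synpo+/+ ones. In control DG it measured 19.1 to 24.5 CPM in Synpo+/+ libraries and 41.0 to 69.3 CPM in those labelled Synpo-/-, and in control CA3 25.8 to 25.9 CPM against 30.4 to 49.1 CPM, so these groups did not overlap and the libraries labelled Synpo-/- were the higher ones. After lesion the groups overlapped, with 23.1 to 38.4 CPM against 32.8 to 40.8 CPM in DG and 34.5 to 36.4 CPM against 35.3 to 45.3 CPM in CA3. In the inputs it measured 20.3 to 32.2 CPM against 26.4 to 29.9 CPM. In Synpo-coIP it ran from 27.0 to 42.2 CPM (35.7 ± 6.17, SD, n = 5) in Synpo+/+ controls and from 35.1 to 41.2 CPM (37.2 ± 2.67, n = 5) after lesion. The Synpo-coIP libraries labelled Synpo-/- held 25.7 and 30.7 CPM (28.2 ± 3.53, n = 2). These lay below every lesioned Synpo+/+ library and overlapped the controls. The gene-level count spans all exons and does not show which part the allele lacks, so genotype was taken from the labels. The regional labels held up against marker genes except in a single library. Summed CPM of 8 granule cell markers lay between 461 and 789 in the other 21 DG libraries and between 80.6 and 201 in the 17 CA3 libraries. The library labelled DG, Synpo+/+, 3 dp ECL, replicate 5 had a granule marker sum of 80.8 CPM, with 15.5 CPM of Prox1 against 170 to 217 CPM in its group. Its sum over 6 CA3 markers was 279 CPM.

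On GRCm38 (GENCODE vM25) the members lie on 8 chromosomes, Scg2 at chr1:79434669-79440120, Pdyn at chr2:129686565-129699844, Chgb at chr2:132781278-132795079, Penk at chr4:4133531-4138819, Vgf at chr5:137026392-137033351, Tac1 at chr6:7554879-7565834, Tac2 at chr10:127724478-127731768, Chga at chr12:102554969-102565028 and Adcyap1 at chr17:93199017-93206537. All are protein-coding genes, with Scg2, Pdyn and Penk on the minus strand.

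Promoter sequences show what the start regions of these genes share. RefSeq start regions on GRCm38.p6, 300 bases running from 250 before to 50 after a start, were found for 7 of the 9 genes, with no entry for Penk and Vgf in the table used. On both strands they were searched for the cyclic AMP response element (CRE) TGACGTCA, its half-site TGACG, which lies within the full element, the AP-1 motif TGANTCA and the EGR motif GCGNGGGCG. Scg2 and Chgb, the 2 most abundant members, held the full CRE, at -68 and -72 from the start, a motif found in 1.79% of 32851 start regions. The half-site occurred in 5 members (Tac1, Adcyap1, Scg2, Chga and Chgb) and in 20.8% of all start regions. No member held the AP-1 motif, which 7.81% of start regions hold, and Chgb alone among the 7 held the EGR motif, which 5.55% hold. The windows below are 30 bases each, written along the gene's strand, with the motif on either strand in capitals. They show a CRE or half-site each of Scg2, Chgb, Chga, Adcyap1 and Tac1. Another Tac1 half-site, at -197, and the EGR motif of Chgb, at -49, are not shown.
Scg2, chr1:79440076-79440105, minus strand: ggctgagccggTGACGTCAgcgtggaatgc
Chgb, chr2:132781559-132781588, plus strand: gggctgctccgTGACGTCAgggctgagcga
Chga, chr12:102554886-102554915, plus strand: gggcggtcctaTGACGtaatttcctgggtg
Adcyap1, chr17:93198915-93198944, plus strand: gactaggatgcTGACGtcttttactgatac
Tac1, chr6:7555007-7555036, plus strand: ctctacaggctCGTCAcgcctgagataaat
The Scg2, Chgb and Tac1 windows lie within the GENCODE genes, whose outermost start is upstream of the RefSeq start used, and those of Chga and Adcyap1 lie upstream of them.

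Per length, in TPM, which scales counts to exon length and library size, Scg2 and Chgb stood far above the other members. In Synpo+/+ control DG, Scg2 measured 488 ± 68.1 TPM (SD, n = 4) and Chgb 315 ± 39.2 TPM. Tac1 at 24.1 ± 8.26 TPM and Chga at 23.9 ± 5.79 TPM did not differ beyond their spread, nor did Adcyap1 at 11.7 ± 1.81, Penk at 11.1 ± 2.17 and Tac2 at 9.71 ± 4.57 TPM. Vgf at 4.03 ± 1.29 TPM and Pdyn at 2.81 ± 0.939 TPM were the lowest. In Synpo+/+ control CA3 the upper pair changed places, with Chgb at 496 ± 13.3 TPM (SD, n = 2) and Scg2 at 399 ± 56.1 TPM. Adcyap1 was the lowest member there, at 0.248 ± 0.0615 TPM.

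**Figure D1:**
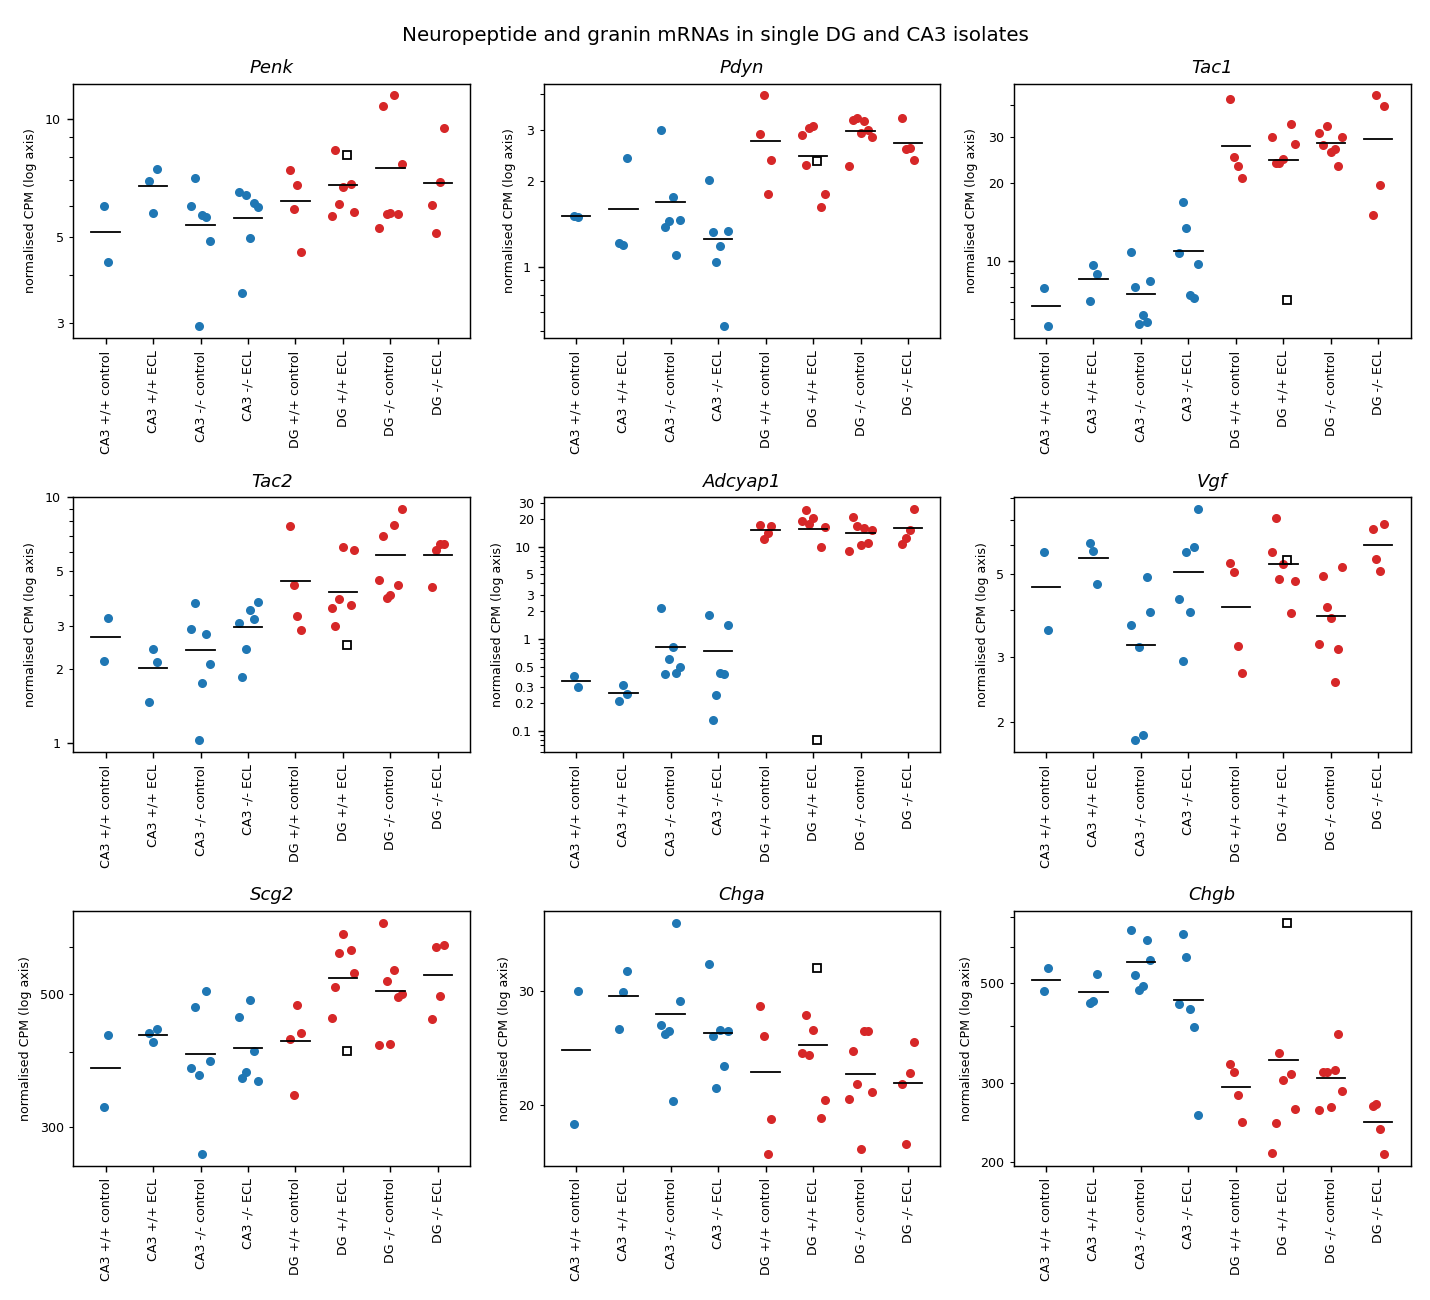
Normalised CPM (log axis) of the 9 genes in the 39 DG (red) and CA3 (blue) libraries, by genotype label and lesion, with a line at each group mean; the open square is the library labelled DG, Synpo+/+, 3 dp ECL, replicate 5. Adcyap1 lies at 8.97 CPM or more in every DG library but that one, and at 2.16 CPM or less in every CA3 library.

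The first comparison asked how the members differ between the DG and the CA3 area. Adcyap1, Tac1, Tac2, Pdyn and Scg2 were higher in DG, and Chgb was lower, in 2 or more of the 4 genotype and lesion settings. In Synpo+/+ controls 3 members were called, against 5.39% of all genes tested. In lesioned Synpo+/+ cultures 2 members were called, against 2.05%, and without replicate 5 of the lesioned DG group 5 members were called, against 19.8%. In the libraries labelled Synpo-/-, 7 members were called in controls, against 25.5%, and 6 after lesion, against 13.6%. The median log2 difference over the 9 members was 0.28, 0.38, 0.58 and 0.42 in these settings, against 0.02, 0.06, 0.05 and 0.03 over all genes tested. As the members were chosen with earlier results known, these counts and medians are a description and not a test of the set.

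Adcyap1, the PACAP precursor, gave the widest contrast. It measured 12.3, 14.1, 16.7 and 17.1 CPM in Synpo+/+ control DG and 0.299 and 0.395 CPM in CA3, where 5 and 6 reads were counted. The groups did not overlap, and the log2 difference was 5.44 ± 0.32 (SE), a 43.3-fold higher level in DG (adjusted p = 6.89e-07). After lesion it ran from 0.0797 CPM, 3 reads, in DG replicate 5 to 24.9 CPM, with a median of 17.8 CPM, against 0.211, 0.25 and 0.318 CPM in CA3. With that library the log2 difference was 5.93 ± 1.13 (adjusted p = 0.0293), and without it the DG group ran from 10.0 to 24.9 CPM and the difference was 6.12 (adjusted p = 3.15e-09). With replicate 5 kept, leaving out any other single library ended the call of both Adcyap1 and Tac1, with adjusted p for Adcyap1 from 0.0548 to 0.166.

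In control libraries labelled Synpo-/-, Adcyap1 ran from 8.97 to 20.8 CPM (median 15.2) in DG and from 0.413 to 2.16 CPM (median 0.554) in CA3. The log2 difference was 4.16 ± 0.32 (adjusted p = 1.72e-08). After lesion the DG libraries measured 10.6, 12.5, 15.2 and 25.6 CPM and the CA3 libraries 0.133 to 1.81 CPM (median 0.42), a log2 difference of 4.41 ± 0.45 (adjusted p = 1.64e-05). No DG library overlapped a CA3 library in either setting. The CA3 library at 2.16 CPM, control replicate 1, also had the highest granule marker sum of its group, 201 CPM against 80.8 to 112 CPM, and without it the log2 difference was 4.75. The part of granule cell tissue in these CA3 libraries was not tested. In tissue RNA, fewer cells of a type and less RNA per cell cannot be told apart.

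Tac1, the substance P precursor, was higher in DG in all 4 settings. In Synpo+/+ controls it measured 21, 23.3, 25.2 and 42.1 CPM in DG and 5.63 and 7.89 CPM in CA3, without overlap, and the log2 difference was 2.06 ± 0.28, 4.17-fold (adjusted p = 0.000529). In controls labelled Synpo-/- it ran from 23.3 to 33.1 CPM (median 28) in DG and from 5.75 to 10.8 CPM (median 7.11) in CA3, again without overlap, with a log2 difference of 2.03 ± 0.14 (adjusted p = 4.34e-09). After lesion the difference was 1.59 ± 0.35 (adjusted p = 0.0374) in Synpo+/+ cultures and 1.45 ± 0.29 (adjusted p = 0.00308) in those labelled Synpo-/-. Replicate 5 of the lesioned Synpo+/+ DG group held 7.12 CPM of Tac1 against 23.8 CPM or more in the rest of its group, and without it the difference was 1.72. After lesion in the Synpo-/- setting the groups overlapped, with 15.1, 19.7, 39.5 and 43.6 CPM in DG and up to 16.9 CPM in CA3.

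Tac2, the neurokinin B precursor, was called higher in DG in both settings labelled Synpo-/-. In controls it ran from 3.91 to 8.97 CPM (median 4.62) in DG and from 1.03 to 3.72 CPM (median 2.44) in CA3, without overlap, with a log2 difference of 1.40 ± 0.26 (adjusted p = 0.000411). After lesion it measured 4.33, 6.08, 6.49 and 6.49 CPM in DG and 1.86 to 3.75 CPM in CA3, a log2 difference of 0.99 ± 0.21 (adjusted p = 0.00478). In lesioned Synpo+/+ cultures the difference was 1.11 ± 0.31 (adjusted p = 0.0785), and without replicate 5 it was called at 1.18 (adjusted p = 0.00526). In Synpo+/+ controls it was 0.77 ± 0.38 and not called.

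Pdyn, the dynorphin precursor, was called higher in DG in the libraries labelled Synpo-/-, by 0.91 ± 0.22 log2 units in controls (adjusted p = 0.00425) and by 1.11 ± 0.27 after lesion (adjusted p = 0.0122). In those controls it ran from 2.24 to 3.3 CPM (median 2.99) in DG and from 1.1 to 3.01 CPM (median 1.45) in CA3. The overlap came from CA3 control replicate 1 at 3.01 CPM, since the other CA3 libraries held at most 1.75 CPM. After lesion the groups did not overlap, with 2.36 CPM or more in DG and 2.02 CPM or less in CA3, and leaving out DG replicate 1 gave 1.01 (adjusted p = 0.05, just over the threshold). In Synpo+/+ controls it measured 1.79, 2.37, 2.91 and 3.97 CPM in DG and 1.5 and 1.51 CPM in CA3, a difference of 0.88 ± 0.38 that was not called (adjusted p = 0.237).

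Penk, the enkephalin precursor, was called in 1 setting, controls labelled Synpo-/-, at 0.58 ± 0.21 (adjusted p = 0.0470). It ran from 5.26 to 11.5 CPM (median 5.76) in DG and from 2.94 to 7.09 CPM (median 5.66) in CA3, so most values overlapped. The call was lost on leaving out any of 8 of the 13 libraries (CA3 replicates 1, 3, 4, 5 and 6 and DG replicates 2, 5 and 7, adjusted p from 0.0527 to 0.138). In the other 3 settings its log2 difference lay between 0.08 and 0.31. An exon of the opposite-strand gene A830012C17Rik overlaps Penk by 157 bp, and the counting was unstranded, so reads of the pair cannot be told apart there.

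Chgb, chromogranin B, went the other way. It measured 246, 282, 317 and 330 CPM in Synpo+/+ control DG and 478 and 538 CPM in CA3, a log2 difference of -0.78 ± 0.14 (adjusted p = 0.00503), which was -0.70 (adjusted p = 0.0702) without CA3 replicate 2. In controls labelled Synpo-/- it ran from 261 to 384 CPM (median 317) in DG and from 481 to 653 CPM (median 540) in CA3, with a difference of -0.75 ± 0.09 (adjusted p = 4.48e-06). Neither pair of groups overlapped. After lesion in the Synpo-/- setting the difference was -0.89 ± 0.20 (adjusted p = 0.00645), with 209, 237, 267 and 269 CPM in DG and 254 to 642 CPM (median 443) in CA3, where the lowest library overlapped the DG group. In lesioned Synpo+/+ cultures DG replicate 5 held 678 CPM of Chgb against 210 to 350 CPM in the rest of its group. The difference was -0.44 ± 0.26 (adjusted p = 0.358) with it and -0.72 (adjusted p = 0.00110) without it.

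Scg2, the other abundant granin, was called higher in DG in the settings labelled Synpo-/-, by 0.46 ± 0.12 in controls (adjusted p = 0.00740) and 0.42 ± 0.13 after lesion (adjusted p = 0.0374). In those controls it ran from 411 to 658 CPM (median 499) in DG and from 270 to 506 CPM (median 382) in CA3, and after lesion it measured 455, 496, 600 and 605 CPM in DG and 359 to 488 CPM in CA3. The groups overlapped in both settings. The call after lesion was lost without CA3 replicate 2, 3 or 5 or DG replicate 2, 3 or 4, with adjusted p from 0.0659 to 0.136. In lesioned Synpo+/+ cultures the difference was 0.38 ± 0.15 (adjusted p = 0.165) and 0.42 (adjusted p = 0.0109) without replicate 5, and in Synpo+/+ controls it was 0.17 ± 0.16. In both settings labelled Synpo-/-, Scg2 and Chgb were thus called in opposite directions between the regions. Chga and Vgf were not called between the regions in any setting, with log2 differences from -0.25 to -0.10 for Chga and from -0.17 to 0.36 for Vgf.

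**Figure D2:**
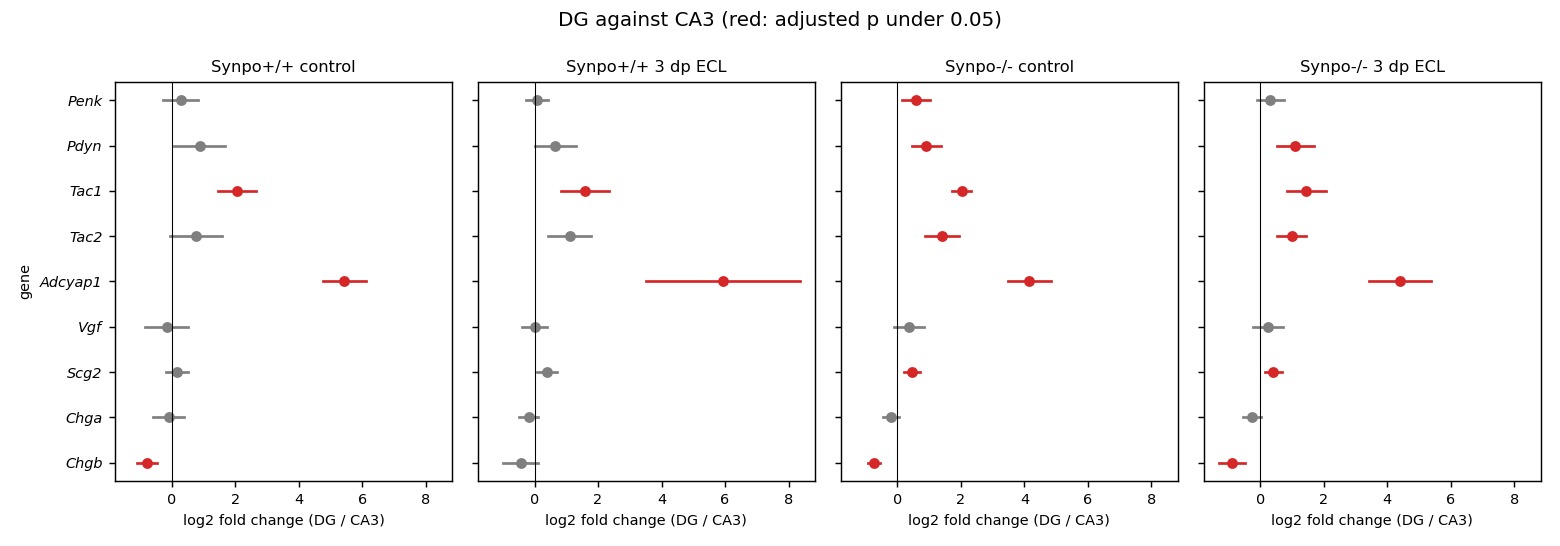
Log2 fold change of DG over CA3 with its 95% confidence interval for each gene in the 4 genotype and lesion settings, red where the adjusted p was under 0.05. Adcyap1 lies between 4.16 and 5.93 in all 4 panels, and Chgb lies below 0 in all 4, from -0.89 to -0.44.

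Other peptide genes were read from lists. Of 23 other neuropeptide precursors 16 passed the filter, and 7, 2, 11 and 8 were higher in DG in the Synpo+/+ control, Synpo+/+ lesion, Synpo-/- control and Synpo-/- lesion settings, with none lower. Cort, a relative of somatostatin, rose by 3.24 and Gal, the galanin precursor, by 2.61 log2 units in Synpo+/+ controls, and Nts, the neurotensin precursor, and Grp, the gastrin-releasing peptide precursor, stood 5.38 and 4.25 higher in controls labelled Synpo-/-. Without replicate 5 the lesioned Synpo+/+ setting gave 9 higher and 2 lower. Adcyap1r1, the PACAP receptor, was higher in DG in all 4 settings, by 1.36, 1.38, 1.30 and 1.62 log2 units, so ligand and receptor RNA were both higher in DG. Of the 8 peptide receptors tested it was the only one called in 3 of the settings, and 4 were higher and 1 (Oprk1, the dynorphin receptor, -1.03) lower in Synpo-/- controls. Without replicate 5, Tacr3, the neurokinin B receptor, was also called in lesioned Synpo+/+ cultures, at -1.12. Of 14 prohormone processing and dense-core vesicle genes 4, 2, 4 and 4 were lower in DG, with 6 in place of 2 without replicate 5, among them Cadps, a priming factor for dense-core vesicles (-0.82 in Synpo+/+ controls), while Pam, the amidating enzyme, was higher by 0.57 in Synpo-/- controls. Scg5, the chaperone of the convertase Pcsk2, was lower in DG in the same 3 settings in which Chgb was, by 0.75, 0.63 and 0.87 log2 units.

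Markers of other cell types moved with region too. All 8 granule cell markers were called higher in DG in 3 settings and 7 of 8 in the lesioned Synpo-/- setting. CA3 markers were lower for 2, 0, 4 and 4 of 6 genes. GABAergic interneuron markers were higher for 1, 0, 3 and 0 of 10 genes, with summed levels of 667 to 894 CPM in Synpo+/+ control DG and 580 to 621 CPM in CA3. Oligodendrocyte markers were lower for 5, 0, 9 and 0 of 9 genes, with sums of 550 to 949 CPM and 1317 to 2019 CPM. The counts of 0 in lesioned Synpo+/+ cultures rest on replicate 5, without which 4 CA3 markers and 6 oligodendrocyte markers were lower and 2 GABAergic markers higher. No marker gene was at 0 in any of the 39 regional libraries, and the part of interneurons or glia in the regional differences of the members was not tested.

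Across the 39 regional libraries the gene most like Adcyap1 among 17463 compared was Pter (Pearson r = 0.9715 of log2 CPM), followed by Prox1, the granule cell transcription factor, at 0.9673 and Isoc1 at 0.9663. Tac1 was most like C1ql3 (0.9209), a mossy fiber synaptic organiser, Pter (0.917) and Lingo2 (0.9155). Chgb was most like Brinp1 (0.9356), Rasgrp1 (0.9202) and Epha4 (0.9185). For the other members the highest r was 0.8415 for Scg2 with Rnd3, 0.8305 for Pdyn with Gabrd, 0.8271 for Chga with Adcy5, 0.7926 for Tac2 with Zdhhc22, 0.7642 for Vgf with Hspb1 and 0.6758 for Penk with Cdo1. With group means removed, r was 0.8866, 0.8614 and 0.8776 for Adcyap1, 0.6873, 0.6297 and 0.6292 for Tac1, and 0.9312, 0.88 and 0.8063 for Chgb. For the other members it was 0.7379, 0.5227, 0.8013, 0.528, 0.5679 and 0.6389 in the order above. Replicate 5 of the lesioned Synpo+/+ DG group is kept in these values. Among the members, Adcyap1 and Tac1 went together most (r = 0.8802) and Adcyap1 and Chgb went apart most (r = -0.8548). These libraries differ in region and depth. With group means removed the values for those pairs were 0.5681 and -0.7063. Without replicate 5 of the lesioned Synpo+/+ DG group, left out after its markers were seen, they were 0.05731 and -0.3989. The values with group means removed thus rest largely on that library. Without it and with group means kept, r was 0.8762 and -0.8421.

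The second comparison asked what changes after partial denervation. No member was called after the lesion in any of the 4 regional settings, against 1.78% of genes tested in Synpo+/+ CA3, 12.2% in Synpo+/+ DG, 0.0770% in Synpo-/- CA3 and 8.53% in Synpo-/- DG. At an unadjusted p under 0.05 there were 0, 1, 2 and 2 members, against 23.9%, 33.0%, 7.27% and 21.6% of all genes. DESeq2 called 0, 0, 0 and 2 members, against 6.01%, 17.8%, 0.390% and 12.1%. The calls in Synpo+/+ CA3 rest on single libraries, since without lesioned replicate 1 no gene was called there, without lesioned replicate 2 there were 2 and without control replicate 2 there were 669 of 26127. Adcyap1 did not pass the filter on low counts in Synpo+/+ CA3 and was not tested there.

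Vgf had a positive log2 difference in all 4 settings, 0.15 ± 0.27, 0.35 ± 0.21, 0.66 ± 0.26 and 0.58 ± 0.19 in Synpo+/+ CA3, Synpo+/+ DG, Synpo-/- CA3 and Synpo-/- DG. In Synpo-/- DG it measured 5.09, 5.48, 6.59 and 6.81 CPM after lesion and 2.56 to 5.21 CPM (median 3.8) in controls, with an overlap from the control library at 5.21 CPM. The adjusted p was 0.0634, and it was 0.0417 without control replicate 2 and 0.0377 without control replicate 7. In Synpo-/- CA3 it ran from 2.92 to 7.47 CPM (median 5.01) after lesion and from 1.79 to 4.91 CPM (median 3.41) in controls (adjusted p = 0.582).

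Scg2 in Synpo+/+ DG measured 339, 420, 431 and 480 CPM in controls and 402 to 630 CPM (median 543) after lesion. The log2 difference was 0.32 ± 0.14 (adjusted p = 0.131). Without replicate 5, the library at 402 CPM, it was 0.37 and called (adjusted p = 0.0387), as was 13.8% of all genes tested. In DG labelled Synpo-/- the Scg2 difference was 0.05 ± 0.13, and the difference between the genotypes' lesion effects was -0.32, with a 95% confidence interval from -0.73 to 0.10 (adjusted p = 0.505).

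Chgb in Synpo-/- DG measured 209, 237, 267 and 269 CPM after lesion and 261 to 384 CPM (median 317) in controls, a log2 difference of -0.37 ± 0.11 (adjusted p = 0.0508). It passed the threshold without control replicate 1, 4 or 7 (adjusted p from 0.0415 to 0.0493). In Synpo+/+ DG the Chgb difference was 0.17 ± 0.24, and -0.10 without replicate 5. Tac1 in Synpo-/- CA3 had a median of 7.11 CPM in controls and 10.3 CPM after lesion, a log2 difference of 0.55 ± 0.21 that was not called (adjusted p = 0.560). The other values after lesion ranged from -0.52 for Tac2 in Synpo+/+ CA3 to 0.35 for Tac2 in Synpo-/- CA3.

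**Figure D3:**
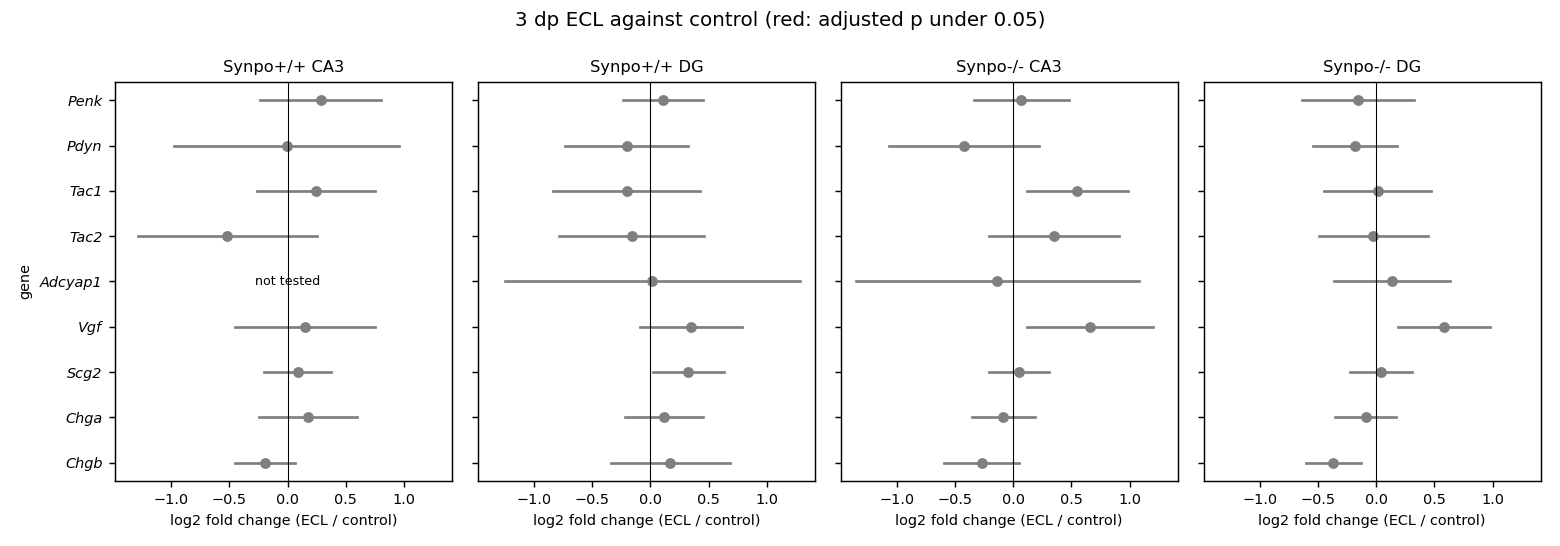
Log2 fold change of 3 dp ECL over control with its 95% confidence interval for each gene in the 4 region and genotype settings; no gene has an adjusted p under 0.05. Vgf lies at or above 0.15 in all 4 panels, and Adcyap1 was not tested in Synpo+/+ CA3.

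Other gene groups moved in the same libraries. Of 18 immediate early and activity genes, 10 were higher and 1 lower after lesion in Synpo+/+ DG, and 12 were higher in Synpo-/- DG, 4 in Synpo-/- CA3 and 0 in Synpo+/+ CA3. Egr1 rose by 1.79 log2 units in Synpo+/+ DG and 2.48 in Synpo-/- DG, and Egr2, another zinc finger factor, by 3.22 and 3.77. Cck, the cholecystokinin precursor, rose by 0.91 in Synpo+/+ CA3, a call that is lost with all others there without lesioned replicate 1. In Synpo-/- DG Nts rose by 1.21 and Nmb, the neuromedin B precursor, by 0.58, while Adm, the adrenomedullin precursor, fell by 0.95, Tacr3 fell by 1.15, Pcsk2 fell by 0.41 and Ptprn2, a dense-core vesicle protein, fell by 0.40. In Synpo+/+ DG Scg3, a granin-binding protein, rose by 0.46 and Ptprn, a vesicle protein, by 0.48. Without replicate 5, 1 of the other precursors was called higher and 2 lower in Synpo+/+ DG, where none was called with it, and 2 processing genes were lower in place of 0. Of 12 microglia markers 12 were higher in Synpo+/+ DG and 9 in Synpo-/- DG, with sums of 736 to 1098 CPM in controls and 1742 to 2280 CPM after lesion in Synpo+/+ DG. Their part in the values of the members was not tested.

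The third comparison set the libraries labelled Synpo-/- against Synpo+/+. No member was called in the 4 settings, in which 0.00413%, 0.00891%, 0.0166% and 0.0166% of all genes tested were called for CA3 control, CA3 lesion, DG control and DG lesion. Tac2 in lesioned CA3 alone had an unadjusted p under 0.05, with 1.48, 2.14 and 2.42 CPM in Synpo+/+ and 1.86 to 3.75 CPM (median 3.14) in Synpo-/- libraries, a log2 difference of 0.61 ± 0.27 (adjusted p = 0.808). Of all genes tested, 16.4%, 6.16%, 15.5% and 3.56% had an unadjusted p under 0.05 in the 4 settings. DESeq2 called no member either, against 2.97%, 0.0980%, 0.973% and 0.0498% of all genes. Without replicate 5 of the lesioned Synpo+/+ DG group no member was called, against 0.0375%. Adcyap1 in control CA3 measured 0.299 and 0.395 CPM, from 5 and 6 reads, in Synpo+/+ libraries. In those labelled Synpo-/- it measured 0.413 CPM or more, from 6 to 51 reads, so the read counts met at 6. The log2 difference of 1.19 ± 0.76 was not called (adjusted p = 0.451). Granule marker sums there were 87.5 and 91.7 CPM against 80.8 to 201 CPM, and their part was not tested. The 95% confidence interval of that Adcyap1 value ran from -0.44 to 2.83.

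Whether the lesion acted differently by genotype or region was tested by interaction terms. No member was called for genotype by lesion in CA3 or DG (0% and 0.00381% of all genes) or for region by lesion in Synpo+/+ or Synpo-/- cultures (0% and 1.12%). At an unadjusted p under 0.05 there were 0 members in each, and DESeq2 called 0. Chgb for genotype by lesion in DG came nearest in interval, at -0.58 with limits of -1.18 and 0.02, and without replicate 5 it was -0.32 (adjusted p = 0.604).

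The fourth comparison asked which members were richer in Synpo-coIP than in the input of the same lysates. Control lysates 1 and 2 of Synpo+/+ cultures stood apart. They held 13.4 and 6.76 CPM of Adcyap1 in the input against 1.05 to 2.48 CPM in control lysates 3 to 5. They also had 73.4 and 32.6 CPM of Penk against 12.1 to 27.1 CPM, and 1268 and 671 CPM of Scg2 against 379 to 439 CPM. Their oligodendrocyte marker sums were 2063 and 2534 CPM against 5282 to 5883 CPM, and their GABAergic marker sums 1345 and 1088 CPM against 824 to 1025 CPM. The part of tissue composition in these differences was not tested.

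Vgf was the member that was higher in Synpo-coIP. Its coIP over input ratio was above 1 in 12 of 12 lysates, 1.21 to 1.57 in Synpo+/+ controls, 1.01 to 2.18 after lesion, and 1.69 and 2.36 in the lysates labelled Synpo-/-. The labels of the latter carry 2 crossed numberings, and coIP and input were matched by the preparation number. In lesioned Synpo+/+ cultures it measured 3.35, 3.38, 3.91, 6.3 and 6.9 CPM in coIP and 2.24, 2.29, 2.89, 3.34 and 3.36 CPM in input, a log2 difference of 0.76 ± 0.25 (adjusted p = 0.0169), and without coIP replicate 4 it was 0.59 (adjusted p = 0.0510). With the lysate as a block the difference after lesion was 0.72 (adjusted p = 0.0100). In Synpo+/+ controls coIP held 4.05, 5.56, 6.39, 8.37 and 12.4 CPM and input 2.78, 3.63, 4.61, 6.92 and 7.89 CPM, a difference of 0.53 ± 0.31 that was called only with the lysate as a block (0.53, adjusted p = 0.00394). In the lysates labelled Synpo-/- the values were 5.51 and 8.12 CPM in coIP and 3.26 and 3.44 CPM in input, a difference of 0.99 ± 0.26 (adjusted p = 0.0137). The call there was lost without input replicate 2 (0.96, adjusted p = 0.0509) or coIP replicate 1 (0.68, adjusted p = 0.0957). With the trends of each library with gene length and GC content removed, the Vgf differences were 0.10, 0.23 and 0.59 and none was called, while with the length trend alone removed they were 0.77, 1.08 and 1.14 and each was called. For Vgf and the members below, the share of all genes with ratios on 1 side in every lysate was not counted. Between coIP and input 55.0%, 58.3% and 31.4% of all genes tested were called in Synpo+/+ controls, after lesion and in Synpo-/- lysates.

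Tac1 was below 1 in 12 of 12 lysates, with ratios of 0.622 to 0.765 in Synpo+/+ controls, 0.414 to 0.856 after lesion, and 0.84 and 0.961 in the lysates labelled Synpo-/-. After lesion coIP held 6.86, 11.8, 12.2, 12.2 and 16.6 CPM and input 16.6, 17, 19.4, 20.8 and 22.7 CPM, a log2 difference of -0.68 ± 0.18 (adjusted p = 0.00544). In controls the difference was -0.49 ± 0.27 (adjusted p = 0.142), and -0.50 with the lysate as a block (adjusted p = 8.43e-05). In the lysates labelled Synpo-/- it was -0.19 ± 0.16 and not called. After lesion the value was -0.46 (adjusted p = 0.0376) with the length trend removed and -0.29 (adjusted p = 0.162) with length and GC, where the call was lost.

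Tac2, Penk and Chgb each had ratios below 1 in all 10 Synpo+/+ lysates and above 1 in both lysates labelled Synpo-/-. Tac2 ratios ran from 0.5 to 0.802 in controls and from 0.366 to 0.748 after lesion, and were 1.04 and 1.34 in the Synpo-/- lysates. Its log2 difference was -0.60 ± 0.25 in controls (adjusted p = 0.0493) and -0.84 ± 0.28 after lesion (adjusted p = 0.0199). Among the controls it was lost without input replicate 1, 2 or 3 or coIP replicate 1, 3, 4 or 5 (adjusted p from 0.0712 to 0.123), and after lesion without input replicate 3 or coIP replicate 2 (adjusted p 0.0518 and 0.0515). Chgb was -0.36 ± 0.13 after lesion (adjusted p = 0.0288), with 289, 290, 329, 391 and 421 CPM in coIP and 368, 417, 443, 480 and 531 CPM in input, and this call was lost without input replicate 1 or 2 or coIP replicate 3 or 5 (adjusted p from 0.0551 to 0.0767). The fits with 1 library left out did not pair coIP with input. With the lysate as a block, Chgb (-0.28, adjusted p = 0.00130) and Penk (-0.37, adjusted p = 0.00383) were also called in controls and Penk (-0.39, adjusted p = 0.0127) after lesion. The block kept the Tac2 calls in controls (-0.60, adjusted p = 0.0224) and after lesion (-0.80, adjusted p = 0.0192). It also kept the Chgb call after lesion (-0.37, adjusted p = 0.00307). None of these calls held with the gene length trend removed. In that fit Tac2 was 0.02 in controls and -0.13 after lesion, Chgb 0.03 and 0.01, and Penk 0.22 and 0.24, turned in sign, and Penk was 0.19 and 0.26 with the lysate as a block as well.

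The difference between the genotypes in this enrichment was tested directly. For Tac2 it was -0.86, with limits of -1.74 and 0.02 (adjusted p = 0.700), and no member and 0% of all genes were called. All 9 members, Vgf among them, had negative values, with a median of -0.38 and a range from -0.86 to -0.20. Each estimate of coIP over input was thus lower in Synpo+/+ control lysates than in those labelled Synpo-/-. The libraries of these groups also differed in depth without overlap. Those labelled Synpo-/- held 42886994 to 53682143 counts and the Synpo+/+ control ones 12888443 to 26730691. The part of depth in these estimates and in the ratios above was not tested. At an unadjusted p under 0.05 there were 0 members, against 7.33% of all genes, and DESeq2 called none, against 0.247%. These fits did not pair coIP with the input of the same lysate. With the lysate as a block no member was called either, against 0.296% of all genes. The lesion by fraction term also called 0 members and 0% of genes. It had 0 members at an unadjusted p under 0.05, against 2.22%, and none by DESeq2, against 0%.

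Pdyn was called lower in coIP after lesion, at -0.66 ± 0.24 (adjusted p = 0.0282), with ratios from 0.457 to 0.961 in those 5 lysates, and the call was lost without any of input replicates 1 and 2 and coIP replicates 2, 4 and 5 (adjusted p from 0.0519 to 0.0599). It was also lost with the length trend removed (-0.33, adjusted p = 0.278) and with length and GC (-0.35, adjusted p = 0.248). With the lysate as a block it was kept (-0.72, adjusted p = 0.00984). Adcyap1, Scg2 and Chga were not called in any of the 3 settings, with log2 differences from -0.21 to 0.30, from -0.17 to 0.21 and from 0.06 to 0.37, although with the length trend removed Chga was called in each, at 0.37, 0.43 and 0.55, and in none with length and GC. Chga at 0.37 in the lysates labelled Synpo-/- had an adjusted p of 0.0514. In all, 1 member was called in Synpo+/+ controls, 5 after lesion and 1 in the Synpo-/- lysates, against 55.0%, 58.3% and 31.4% of all genes tested. With the lysate as a block the counts were 5, 6 and 1, against 62.5%, 62.4% and 35.8%.

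**Figure D4:**
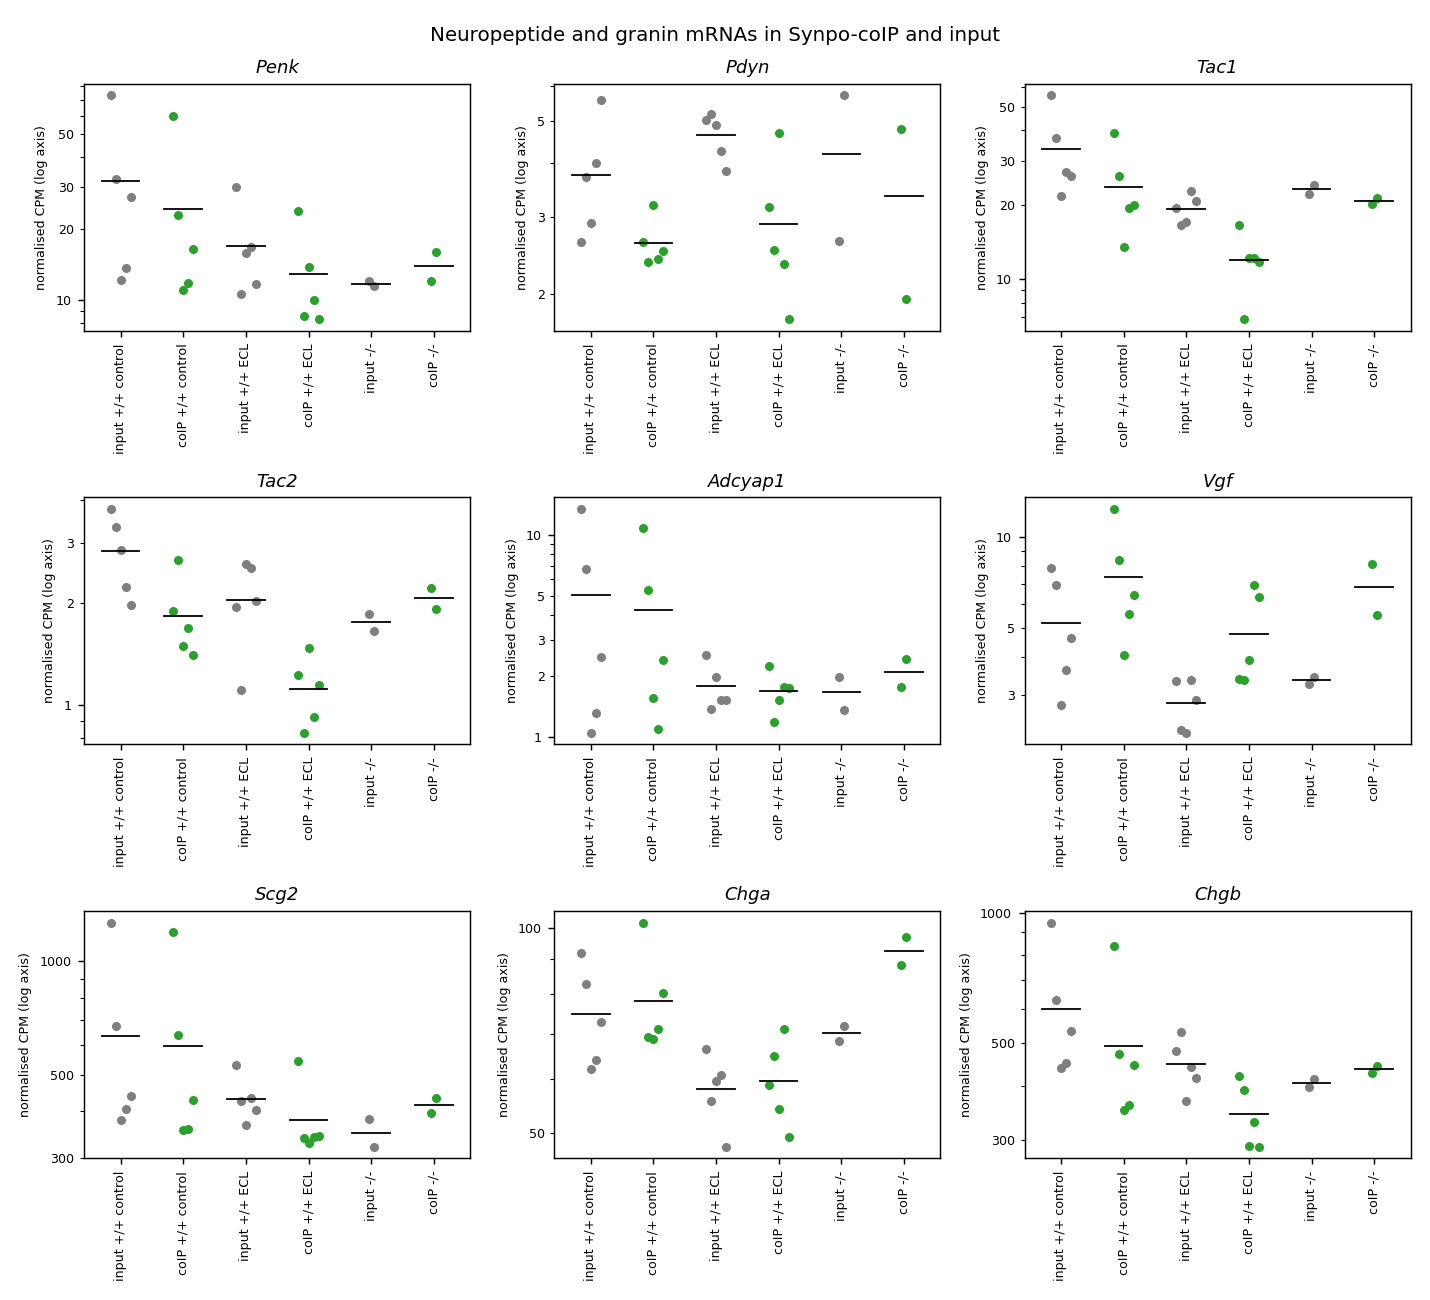
Normalised CPM (log axis) of the 9 genes in input (grey) and Synpo-coIP (green) libraries by genotype label and lesion, with a line at each group mean. In Synpo+/+ control inputs Adcyap1 lies at 13.4 and 6.76 CPM in lysates 1 and 2 and at 1.05 to 2.48 CPM in lysates 3 to 5.

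**Figure D5:**
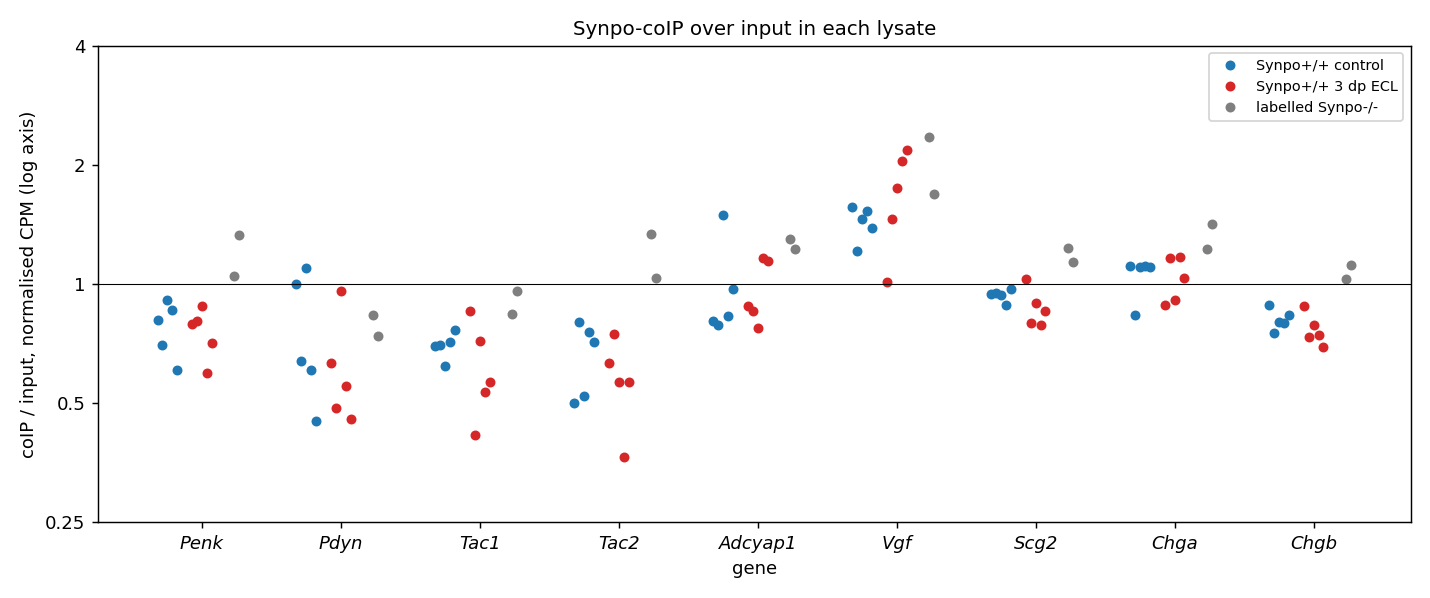
Ratio of normalised CPM in Synpo-coIP to input (log axis) for each gene, a point per lysate, in Synpo+/+ control (blue), Synpo+/+ 3 dp ECL (red) and Synpo-/- (grey) lysates, with a line at 1. Vgf lies above 1 in 12 of 12 lysates and Tac1 below 1 in 12 of 12, and the share of all genes that do so was not counted.

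Of the other peptide precursors 6 of 14 tested were lower in Synpo-coIP in controls and 10 of 15 after lesion, with none higher, and in the Synpo-/- lysates 1 of 16 was higher and 2 lower. Sst, the somatostatin precursor, fell by 1.32 and 1.34 log2 units in the Synpo+/+ settings, and Scg5 fell by 0.67 and 0.85. The processing and dense-core vesicle genes went the other way, with 10, 10 and 6 of 14 higher and 0, 2 and 0 lower, and among them Cadps rose by 0.67 and 0.77 and Ptprn by 0.85 in controls. The PACAP receptor Adcyap1r1 rose by 0.56 and 0.71 in the Synpo+/+ settings. In the lysates labelled Synpo-/- Cadps rose by 0.60, Pam by 1.01 and Adcyap1r1 by 0.48, and each was called there too. Of 12 microglia markers 4, 9 and 5 were lower in Synpo-coIP in the 3 settings, and of 9 oligodendrocyte markers none was called, and their part was not tested. In the 2 Synpo+/+ settings medians were -0.78 and -0.74 over the other precursors and 0.51 and 0.48 over the processing genes. Over all genes tested they were 0.04 and 0.02.

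In the inputs, Tac1 was called lower after lesion. It measured 21.7, 26.2, 27.2, 37.3 and 55.8 CPM in control inputs and 16.6, 17, 19.4, 20.8 and 22.7 CPM in lesioned ones, a log2 difference of -0.81 ± 0.21 (adjusted p = 0.0371), where 5.61% of all genes were called. The highest control values belong to lysates 1 and 2, and without both lysates the difference was -0.39 (adjusted p = 0.157). The call was also lost without lesioned input replicate 1, 2 or 3 or control input replicate 2 (adjusted p from 0.0725 to 0.100), and without control input replicate 3 Vgf was called too (-1.04, adjusted p = 0.0323). Of the 9 members 8 had negative values in the input, and 6 had an unadjusted p under 0.05, as did 19.5% of all genes. Without lysates 1 and 2 the values of Pdyn, Adcyap1 and Scg2 were 0.15, 0.15 and 0.07 and that of Penk was -0.06. In the same inputs astrocyte marker sums ran from 19013 to 27186 CPM in controls and from 23962 to 36099 CPM after lesion, microglia sums from 1489 to 2296 CPM and from 1903 to 3303 CPM, and GABAergic sums from 824 to 1345 CPM and from 652 to 993 CPM. Of these markers 1 of 8, 4 of 12 and 0 of 10 were called higher and 1 GABAergic marker lower, and their part was not tested. In Synpo-coIP no member was called after lesion, against 0.314% of all genes, while 6 members had an unadjusted p under 0.05, against 12.2%, and DESeq2 called Tac1, against 1.99%. Tac1 stood at -0.98 ± 0.26 there (adjusted p = 0.142), and at -0.55 (adjusted p = 0.635) without lysates 1 and 2. Penk, Scg2, Adcyap1 and Pdyn stood at 0.01, 0.02, 0.03 and 0.13 in Synpo-coIP without them.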

How the data were processed

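Libraries were grouped from the labels by region, genotype, lesion and fraction. Per the labels and the study's methods, the authors trimmed reads with cutadapt 3.5, aligned them to mm10 with STAR 2.7.8a and counted exons of GENCODE vM25 genes without regard to strand with featureCounts 2.0.1. The authors deposited raw counts per gene symbol, which were used here as deposited. Low RNA input in the regional kit and antibody pulldown on beads can both change which RNAs are counted. Total counts per library lay between 11601154 and 53682143, and counting error is largest for members with few reads. No 2 libraries of a group agreed within sampling noise (lowest chi-square per degree of freedom 9.189 in 130 pairs).

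In R 4.3.3, edgeR 4.0.16 was run on each of 23 comparisons (TMM scaling, filterByExpr, quasi-likelihood test, Benjamini-Hochberg adjustment over all genes tested, 95% confidence intervals from the fit), with 205 of 207 member and comparison pairs tested. Alternatives were DESeq2 1.42.0, RLE scaling, no filter, a mean normalised count over 300 for a call, all groups in one fit, the replicate number as a block, removal of trends with gene length or GC content, and each library left out in turn. Fits were tested on simulated data. TPM used union exon length. Coordinates are GENCODE vM25 and RefSeq GRCm38.p6. The members and gene lists were chosen with earlier results of these data known. All 9 members are named, and from 5 pathway lists up to 2 genes per list and direction with the smallest p among those called; some of these were left out of the text for brevity.

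Input and coIP libraries of a number come from the same lysate per the methods, and the deviations of 5 control and 5 lesioned pairs correlated at 0.304 to 0.64 and 0.155 to 0.625. The blocked values stand beside the coIP results where they change a call, and beside several calls that they keep. For the pair of Synpo-/- lysates the correlation was 0.0867.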

Additional observations from a re-analysis of the deposited data

Results flagged for a closer look

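In 90 sets of values of a member within a group of 4 to 10 libraries, 7 had a highest or lowest library far from the rest by Dixon's criterion, which chance gives in about 1 in 20. DG, Synpo+/+, 3 dp ECL, replicate 5 held 7.12 CPM of Tac1, with the nearest library at 23.8 CPM, and 678 CPM of Chgb, with the nearest at 350 CPM. CA3, Synpo-/-, control, replicate 1 held 2.16 CPM of Adcyap1, with the nearest at 0.827 CPM, and 3.01 CPM of Pdyn, with the nearest at 1.75 CPM. Synpo-coIP of control lysate 1 held 59.6 CPM of Penk, with the nearest at 22.8 CPM, and 839 CPM of Chgb, with the nearest at 472 CPM. Synpo-coIP of lesioned lysate 1 held 545 CPM of Scg2, with the nearest at 343 CPM.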

How the results depend on the processing

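Of 1525 member values under other settings, 1437 stayed on their side of the threshold with no called value changing sign, 40 lost and 42 gained a call, and 6 that were called in either fit changed sign. With single libraries left out, 2366 of 2443 stayed, 59 lost and 18 gained a call, and 0 called values changed sign. The cause was not tested.
Counts of members called that moved by over 1.5 times were as follows. With a mean normalised count over 300 required, they were 1 for DG against CA3 in lesioned Synpo+/+ cultures, 3 in each Synpo-/- setting, and 0, 2 and 0 for coIP against input in Synpo+/+ control, Synpo+/+ lesion and Synpo-/- lysates, since fewer members can then be called. DESeq2 gave 2 after lesion in Synpo-/- DG (against 12.1% of all genes) and 3 for DG against CA3 in lesioned Synpo+/+ cultures (6.30%). It gave 2 for coIP in Synpo+/+ controls (56.6%) and 2 in Synpo-/- lysates (31.0%). After lesion it gave 3 in inputs (9.40%) and 1 in coIP (1.99%). RLE scaling gave 1 after lesion in Synpo-/- DG (against 8.21% of all genes) and 2 for coIP in controls (55.2%). Without a filter the counts were 0 for coIP in controls (against 28.8% of all genes), 2 after lesion in inputs (3.31%) and 1 in coIP (0.675%). All groups in one fit gave 0 for coIP in Synpo-/- lysates (against 23.4% of all genes), 0 after lesion in inputs (3.04%) and 1 in coIP (1.48%). With the gene length trend removed they were 1 after lesion in Synpo-/- DG (against 8.91% of all genes). For coIP in the 3 settings they were 2, 3 and 4 in that fit (49.4%, 51.4% and 28.1%). With length and GC removed, coIP gave 0 in controls (47.4%) and 1 after lesion (48.9%). With replicate block and length it gave 4 in controls (57.5%) and 4 in Synpo-/- lysates (31.8%). Without control lysates 1 and 2, chosen after seeing the data, the counts were 2 for coIP in controls (against 52.3% of all genes) and 0 after lesion in inputs (1.53%).
Signs changed in coIP for Tac2 in controls (0.0155 with length removed, 0.0205 with replicate block and length), Chgb after lesion (0.00593 with length removed) and Scg2 (0.26 in controls and 0.23 after lesion with replicate block and length, 0.35 after lesion with length and GC).
Regional replicate numbers, and those of lysates across the lesion, pair nothing known (correlations from -0.411 to 0.433, with 4 of 6 libraries best with their own number for DG against CA3 in Synpo-/- controls). With the replicate block the counts were 1 after lesion in Synpo+/+ DG (against 12.6% of all genes) and 6 for DG against CA3 in lesioned Synpo+/+ cultures (20.8%). They were 1 for genotype in lesioned CA3 (1.35%), 5 for coIP in controls (62.5%) and 0 after lesion in inputs (3.75%).
With single libraries left out the counts ran from 0 to 1 after lesion in Synpo+/+ DG, 0 to 2 in Synpo-/- DG, 2 to 3, 0 to 5, 6 to 7 and 5 to 6 for DG against CA3 in the order used above, 0 to 2, 3 to 7 and 0 to 2 for coIP, and 0 to 2 after lesion in inputs. The median of all genes moved by over 0.1 log2 units without a filter (from -0.257 after lesion in Synpo+/+ DG to 0.161 for DG against CA3 in lesioned Synpo+/+ cultures among the 2-group comparisons) and with length removed (-0.140 after lesion in Synpo+/+ DG and -0.133 in Synpo+/+ CA3).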
